A study of Mus musculus with 4 samples.

Results

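The 7 genes described here encode water channels of the lung and ion transporters by which it clears liquid from its air spaces. They are the aquaporins Aqp1 and Aqp5 and the 3 subunits of the epithelial sodium channel (Scnn1a, Scnn1b and Scnn1g). The others are the chloride and bicarbonate channel Cftr and Atp1b1, the beta-1 subunit of the sodium pump. All 7 were chosen by their symbols for their known roles, out of the 32285 genes in the count matrices. These genes were read in all 4 libraries of a single-cell RNA sequencing study of mouse lung. The mice were male, wild-type C57BL/6 animals, young (2 to 3 months) or aged (22 months). The sources tie a food-restricted diet to the aged mice and leave unclear whether the young had it too, so diet and age cannot be told apart. In each age group, 1 library came from naive, nonventilated mice and 1 from mice ventilated mechanically for 3 h with large breaths of pure oxygen and no end-expiratory pressure. The ventilated mice also received ketamine, medetomidine, buprenorphine and vascular lines, none of which the naive controls had, so ventilation cannot be told apart from these procedures. Each library was 1 pool of cryopreserved left-lobe cells from 3 mice, so each condition has 1 sample. No test between conditions was therefore possible, and every interval given below covers counting error only, not the variation between mice.

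Liquid leaves the alveoli because sodium is carried across the alveolar epithelium and water follows. Sodium enters the cells at the air side through the epithelial sodium channel, a complex of alpha, beta and gamma subunits, and is pumped out at the other side by the sodium pump, whose beta subunit brings the catalytic alpha subunit to the cell surface. Aqp5 is the water channel of the air-facing membrane of alveolar type I cells, Aqp1 is the water channel of the microvascular endothelium, and Cftr carries chloride in alveolar type II and airway cells.

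The deposited matrices held 3400 to 4497 barcodes and between 40655452 and 45218176 unique molecular identifiers (UMIs, each counting 1 captured RNA molecule) per library, and 10160 cells were retained, 2171 to 2976 per library, with a median of 7871 to 9104 UMIs per cell. At most 3 barcodes were shared by any pair of libraries. Cell classes were named from marker genes, as "X-like" cells, and levels are given as counts per 1000000 UMIs (CPM) of a class in a library. Where 4 values stand in a row, they are in library order: the young library without and with ventilation, then the aged library without and with ventilation. A ratio is called past the fold where it is 1.5-fold or more in either direction, and it is read beside the share of all measured genes past that fold in the same cells and comparison, since many genes differed between these single libraries. A gene counted as measured in a class where its mean was at least 50 CPM over the 2 libraries compared and at least 1 of them held 20 UMIs of it.

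The 7 genes fell into an endothelial and an epithelial group. General capillary-like cells (2111 cells) held 51.6% of all Aqp1 UMIs in retained cells, venous endothelial-like cells 19.0% and aerocyte capillary-like cells 15.2%. Alveolar type I-like cells (388 cells) held 81.2% of the Aqp5 UMIs, 65.4% of those of Scnn1a, 91.1% of those of Scnn1b and 94.5% of those of Scnn1g. Alveolar type II-like cells (82 cells) held 66.3% of the Cftr UMIs and 62.3% of those of Atp1b1. Both names rest on marker genes: the 8 type I markers summed to between 20655 and 28206 CPM in the type I-like cells and the 8 type II markers to between 132198 and 172887 CPM in the type II-like cells. The shares of UMIs cover retained cells, which leave out 1778 barcodes beyond the upper limits on genes or UMIs. Those barcodes held 16070 Aqp1, 3517 Aqp5, 2693 Scnn1a, 895 Scnn1b, 604 Scnn1g, 407 Cftr and 4443 Atp1b1 UMIs. The type I-like cells held 3158 of Aqp5, 1467 of Scnn1a and 632 each of Scnn1b and Scnn1g. The type II-like cells held 216 of Cftr and 1330 of Atp1b1.

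**Figure D1:**
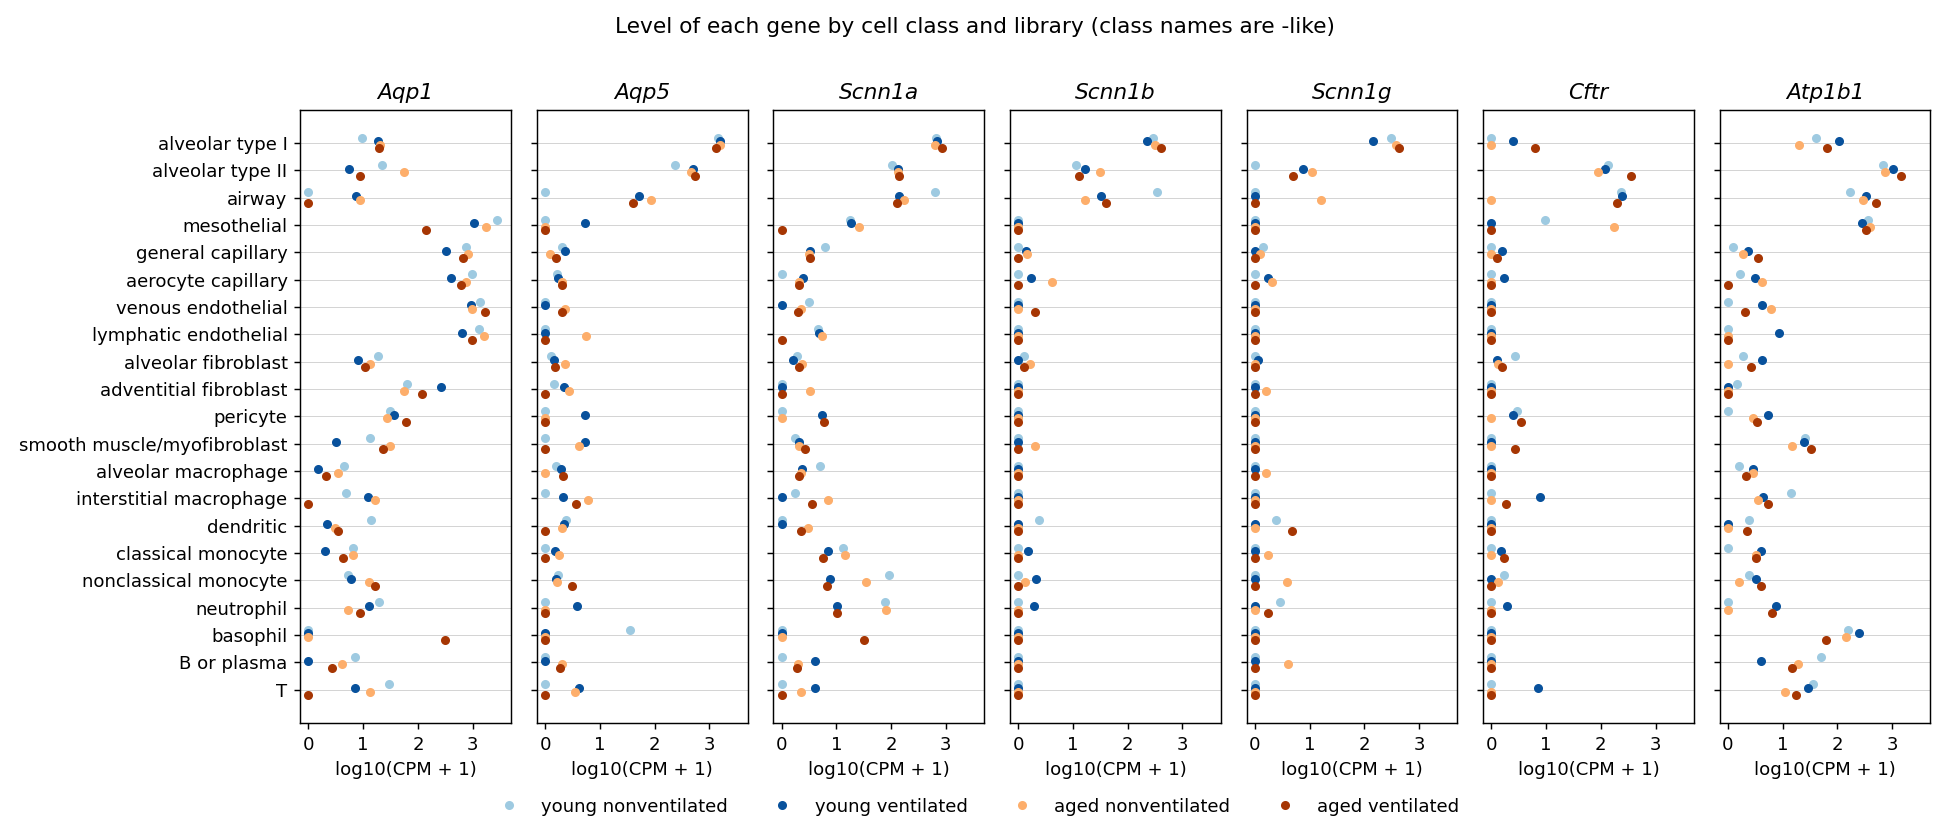
Levels of the 7 genes in the named cell classes, drawn as log10 of the CPM of the class plus 1, with 1 point per library. Aqp1 is highest in endothelial and mesothelial-like cells, Aqp5 and the 3 sodium channel subunits in alveolar type I-like cells, Atp1b1 in alveolar type II-like cells, and Cftr in alveolar type II-like and airway cells.

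Aqp1 was present in all endothelial classes and was lower past the fold in the capillaries of the young ventilated library, while the aged libraries stood closer together. In general capillary-like cells its level was 759 CPM in the young nonventilated library (3519 UMIs) and 328 CPM in the young ventilated library (1757 UMIs), 2.31-fold lower with a 95% counting interval of 2.18 to 2.45. In the aged libraries it was 837 CPM without ventilation (3783 UMIs) and 659 CPM with it (2308 UMIs), 1.27-fold lower (interval 1.21 to 1.34). The young ventilated library stood lowest of the 4, and both nonventilated libraries stood highest. Among all genes measured in these cells, 37% were past the fold between the young libraries and 27.0% between the aged libraries, so that a difference of 1.5-fold or more was common. Whether the ratios at the 2 ages differ could not be tested with 1 library each. At the coarser cluster resolution of 0.18 the aged log2 ratio turned from -0.35 to 0.038. General capillary cells were known from earlier results of these data to merge with arterial and venous cells there, so that value may cover a mixed class.

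Age gave little difference in general capillary Aqp1 without ventilation, where the aged library was 1.10 times the young (interval 1.05 to 1.15), and 2.47% of measured genes were past the fold. With ventilation the aged library was 2.01 times the young (interval 1.88 to 2.14), and 9.26% of measured genes were past the fold. These ratios share libraries with the ventilation ratios above and are not independent of them.

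Aerocyte capillary-like cells, the wide, thin endothelial cells of gas exchange, had Aqp1 at 962 CPM in the young nonventilated, 409 CPM in the young ventilated, 767 CPM in the aged nonventilated and 599.6 CPM in the aged ventilated library. With ventilation the level was 2.35-fold lower in the young (interval 2.13 to 2.60), where 43.2% of measured genes were past the fold. In the aged it was 1.28-fold lower (interval 1.14 to 1.43), where 32.6% were past it, and its log2 ratio of -0.35 moved to -0.011 with every cell thinned to 1000 UMIs and to -0.63 as a mean over cells. Without ventilation the aged level was 1.25-fold lower than the young (interval 1.15 to 1.37, background 5.16%), and with ventilation it was 1.47-fold higher (interval 1.30 to 1.65, background 17.0%), both short of the fold. The last ratio passed it in 5 alternatives, the highest at a log2 ratio of 0.88 with no upper limit on genes or UMIs.

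In the capillaries other genes of these cells moved beside Aqp1. The summed level of the 8 general capillary markers was 6078 and 5982 CPM in the general capillary-like cells of the young and aged nonventilated libraries, against 2964 and 3978 CPM in the ventilated libraries. These cells also carried arterial markers, 854 and 968 CPM summed without ventilation against 374 and 617 CPM with it, since no separate arterial cluster was found. The general capillary-like cells lay in 2 clusters that followed ventilation: 1 held 578 and 497 cells of the young and aged nonventilated libraries and 15 and 62 of the ventilated, and the other held 10 and 12 against 635 and 302. The part of these shifts in the Aqp1 values was not tested.

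Venous endothelial-like cells differed from the capillaries in their Aqp1 values. The level was 1358 CPM in the young nonventilated and 917 CPM in the young ventilated library, 1.48-fold lower (interval 1.34 to 1.64), just short of the fold that 39.7% of measured genes passed. In the aged libraries it was 962 CPM without ventilation and 1652 CPM with it, 1.72-fold higher (interval 1.57 to 1.88), against 33.0% of genes past the fold. The lowest and highest values of the 4 were thus both ventilated libraries, and the directions at the 2 ages were opposite, a difference that was not tested. Between ages, the venous level was 1.41-fold lower in the aged without ventilation (interval 1.29 to 1.55, background 12.2%) and 1.80-fold higher with it (interval 1.64 to 1.98, background 18.3%). With no upper limit on genes or UMIs the aged ventilation ratio and the age ratio under ventilation were both short of the fold, at log2 ratios of 0.46 and 0.50, and the young ventilation ratio passed it in 4 alternatives, the lowest at -0.82. General capillary markers in these cells summed to 2764, 1216, 3300 and 2242 CPM in library order.

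Lymphatic endothelial-like cells (111 cells) carried Aqp1 at 1328 CPM in the young nonventilated, 636 CPM in the young ventilated, 1629 CPM in the aged nonventilated and 965 CPM in the aged ventilated library. Both ventilated libraries stood below both nonventilated libraries, 2.09-fold lower in the young (interval 1.74 to 2.52, background 41.1%) and 1.69-fold lower in the aged (interval 1.41 to 2.03, background 35.9%). The aged level was 1.23 times the young without ventilation (interval 1.06 to 1.42, background 29.0%) and 1.52 times with it (interval 1.22 to 1.88, background 30.7%). The last ratio, 0.60 on the log2 scale, was short of the fold in 6 alternatives, the lowest 0.047 with cells thinned to 1000 UMIs.

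Outside the endothelium, Aqp1 was higher in the adventitial fibroblast-like cells of both ventilated libraries, by an amount that depended on which cells were kept. These connective tissue cells of vessel and airway walls held it at 61.4 CPM in the young nonventilated library (129 UMIs), 263 CPM in the young ventilated (214 UMIs), 53.5 CPM in the aged nonventilated (93 UMIs) and 117 CPM in the aged ventilated library (65 UMIs). Ventilated over nonventilated was 4.27-fold in the young (interval 3.42 to 5.36) and 2.19-fold in the aged (interval 1.57 to 3.04), among 53.6% and 40.2% of measured genes past the fold. The aged level was 0.871 times the young without ventilation (interval 0.660 to 1.15, background 5.94%) and 2.24-fold lower than the young with it (interval 1.69 to 3.01, background 23.5%). Single cells carried much of this signal: 1 cell held 20.2%, 26.6%, 43.0% and 55.4% of the Aqp1 UMIs in library order. Without that cell in each library the log2 ratios were 1.99 in the young and 0.83 in the aged, from 2.09 and 1.14 with all cells. With the UMI limit set over only those barcodes that passed the other limits, the fold was lost in each, at log2 ratios of 0.42 in the young and 0.018 in the aged, and the age ratio under ventilation was -0.53, from -1.15. The age ratio without ventilation, -0.19 on the log2 scale, passed the fold at -1.26 with at most 5% mitochondrial UMIs and at -0.67 without the top cells, and turned to 0.11 with no upper limit. The 6 general endothelial markers summed to at most 45.7 CPM in these fibroblast-like cells and were no higher in the ventilated libraries (24.5 and 23.4 CPM) than in the nonventilated (45.7 and 36.8 CPM).

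**Figure D2:**
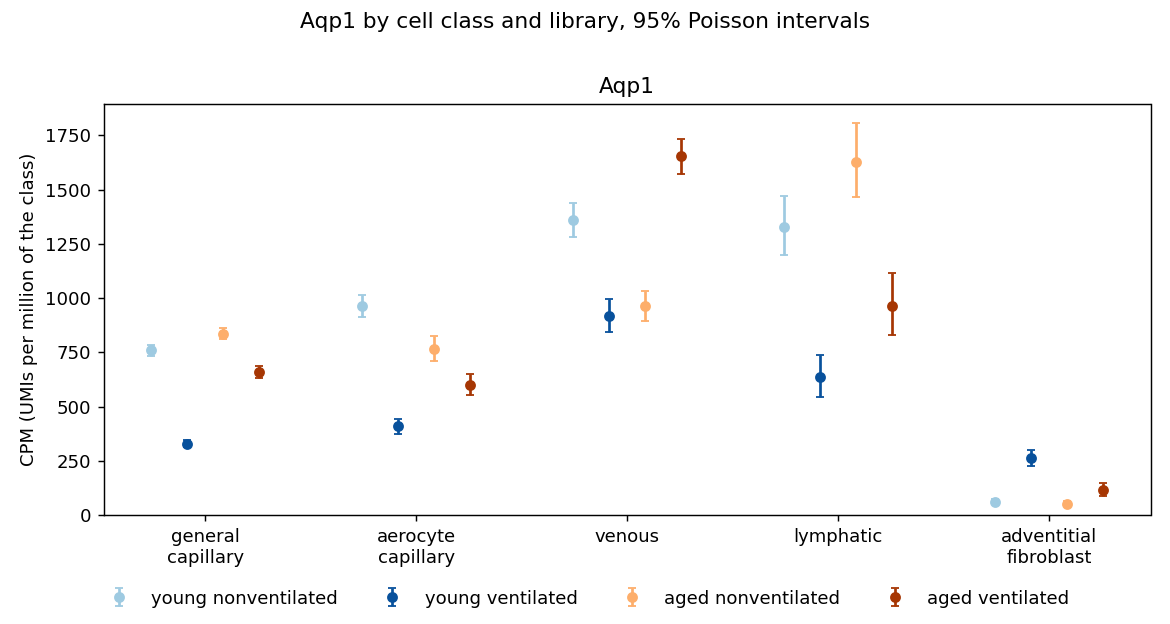
Aqp1 level in the endothelial and adventitial fibroblast-like classes by library, in CPM with 95% counting intervals. Ventilated libraries lie below nonventilated libraries of the same age in general capillary, aerocyte and lymphatic-like cells, above them in adventitial fibroblast-like cells, and on opposite sides at the 2 ages in venous-like cells.

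By mean level over the 4 libraries, Aqp1 was highest in mesothelial-like cells at 1434 CPM ± 1108 (SD over 4 libraries), a mean over only 29 cells in which single libraries ranged from 138 to 2755 CPM. Venous (1222 ± 349 CPM), lymphatic (1139.6 ± 432), aerocyte (684 ± 236) and general capillary-like cells (646 ± 224) followed, and the ranges of neighbours in this order overlapped. With every cell thinned to 1000 UMIs, 842 of 2101 general capillary-like cells (40.1%) had an Aqp1 UMI, against 2 of 324 B or plasma-like cells (0.617%), a class that should lack it. By library the share in general capillary-like cells was 49.8% and 49.4% in the young and aged nonventilated libraries, 23.9% in the young ventilated and 39.9% in the aged ventilated library.

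Aqp5, the water channel of the air-facing alveolar surface, lay within a narrow range in type I-like cells of the 4 libraries. It was 1432 CPM in the young nonventilated (682 UMIs), 1549.8 CPM in the young ventilated (1044 UMIs), 1581 CPM in the aged nonventilated (922 UMIs) and 1313 CPM in the aged ventilated library (510 UMIs). Ventilated over nonventilated was 1.08 in the young (interval 0.981 to 1.19), where 35.4% of measured genes were past the fold, and 0.831 in the aged (interval 0.744 to 0.926), where 27.6% were. The aged level was 1.10 times the young without ventilation (interval 0.998 to 1.22, background 11.5%) and 0.847 times with it (background 20.5%). None of the 4 ratios passed the fold. The age ratio under ventilation, -0.24 on the log2 scale, was -0.59, past the fold, with no upper limit on genes or UMIs and 0.23 with at most 5% mitochondrial UMIs, where the young ventilation ratio also turned, to -0.41. After thinning to 1000 UMIs, 187 of 271 type I-like cells (69.0%) had an Aqp5 UMI, and 0 of 324 B or plasma-like cells did, a count that by a floor of 3 cells allows a share of cells with a UMI of up to 0.926%.

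In type II-like cells Aqp5 stood lower, at 238 CPM in the young nonventilated library (68 UMIs), 502 CPM in the young ventilated (226 UMIs), 457 CPM in the aged nonventilated (181 UMIs) and 547 CPM in the aged ventilated library (140 UMIs). The young nonventilated library was the low one. The young ventilated level was 2.11 times it (interval 1.60 to 2.81) and the aged nonventilated level 1.92 times it (interval 1.44 to 2.57), while the aged ventilated level was 1.20 times the aged nonventilated (interval 0.953 to 1.50) and 1.09 times the young ventilated. With no upper limit on genes or UMIs the age ratio without ventilation was 0.27 on the log2 scale, from 0.93 and short of the fold. With libraries clustered separately the aged ventilation ratio and the age ratio under ventilation passed the fold, at log2 ratios of 0.95 and 0.94, and the latter turned in 3 other alternatives. In type II-like cells 44.3% of measured genes passed the fold with ventilation in the young, 35.2% with ventilation in the aged, 27.5% with age without ventilation and 28.2% with age under ventilation. Type I markers in these cells summed to 1199, 1461, 2039 and 1278 CPM in library order, and the most abundant, Ager, was also lowest in the young nonventilated library (491 CPM, against 918, 925 and 708 CPM). Its part in the Aqp5 values was not tested.

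The alpha subunit of the sodium channel, Scnn1a, which the channel needs for its activity, was the most abundant of the 3 subunits by UMIs in type I-like cells in every library. Its level there was 657 CPM in the young nonventilated library (313 UMIs), 674 CPM in the young ventilated (454 UMIs), 626 CPM in the aged nonventilated (365 UMIs) and 862 CPM in the aged ventilated library (335 UMIs). Ventilated over nonventilated was 1.03 in the young (interval 0.886 to 1.19) and 1.38 in the aged (interval 1.18 to 1.60), and aged over young was 0.952 without ventilation and 1.28 with it (interval 1.11 to 1.48). No ratio passed the fold with all retained cells. With at most 5% mitochondrial UMIs the log2 ratios were -1.31 for ventilation in the young and 1.15 for age under ventilation, both past the fold, and the aged ventilation ratio turned from 0.46 to -0.026. As a mean over cells that ratio was -0.16.

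The beta and gamma subunits, Scnn1b and Scnn1g, differed more between the libraries and were lowest in the young ventilated one. Scnn1b stood at 286 CPM in the young nonventilated library (136 UMIs), 221 CPM in the young ventilated (149 UMIs), 321 CPM in the aged nonventilated (187 UMIs) and 412 CPM in the aged ventilated library (160 UMIs). With ventilation it was 1.29-fold lower in the young (interval 1.02 to 1.64) and 1.28-fold higher in the aged (interval 1.03 to 1.60), opposite directions that were both short of the fold and whose difference was not tested. The young log2 ratio of -0.37 was 0.039 with no upper limit on genes or UMIs, the same side as the aged, and -1.47 with at most 5% mitochondrial UMIs. Between the ventilated libraries the aged level was 1.86 times the young (interval 1.48 to 2.34), a log2 ratio of 0.90 that was 0.44, short of the fold, with no upper limit.

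Scnn1g stood at 300.3 CPM in the young nonventilated library (143 UMIs), 144 CPM in the young ventilated (97 UMIs), 386 CPM in the aged nonventilated (225 UMIs) and 429.9 CPM in the aged ventilated library (167 UMIs). With ventilation it was 2.09-fold lower in the young (interval 1.60 to 2.73) and 1.11-fold higher in the aged (interval 0.907 to 1.37). Between the ventilated libraries the aged level was 2.99 times the young (interval 2.31 to 3.87), and between the nonventilated libraries it was 1.28 times (interval 1.04 to 1.60). With each cell thinned to 1000 UMIs and shallower cells left out, the Scnn1g log2 ratio was -0.088 for ventilation in the young and 0.15 for age under ventilation, against -1.06 and 1.57 with all UMIs. The age ratio without ventilation passed the fold when thinned, at 0.81 from 0.36. The age ratio under ventilation was also just short of the fold, at 0.58, with at most 5% mitochondrial UMIs. For ventilation in the aged the log2 ratio of 0.16 turned in 4 alternatives, to -0.89 with at most 5% mitochondrial UMIs. In the larger of the shallow type I-like clusters Scnn1g was at 334 CPM in the young nonventilated library (14 UMIs) and 130 CPM in the young ventilated (15 UMIs). In the smaller it was at 139 CPM (5 UMIs) and 132 CPM (4 UMIs).

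With all retained cells, the makeup of the channel transcripts stood apart in 1 library. Scnn1a made up 64.9% of the subunit UMIs of type I-like cells in the young ventilated library, with 21.3% for Scnn1b and 13.9% for Scnn1g. In the other libraries Scnn1a made up 47.0% to 52.9%, Scnn1b 23.0% to 24.2% and Scnn1g 24.2% to 29.0%. Of the type I-like cells with at least 5000 UMIs, 24 of 27 (88.9%) in the young nonventilated, 33 of 35 (94.3%) in the aged nonventilated and 19 of 22 (86.4%) in the aged ventilated library had UMIs of all 3 subunits, while 25 of 43 (58.1%) did in the young ventilated library. Median depths of these cells lay between 13709 and 14718.5 UMIs in the 4 libraries, with the lowest in the young ventilated one.

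Type I-like cells were an uneven class. Of 388 cells, 127 had at least 5000 UMIs, and the median was 1634.5 UMIs. Most of the deep cells lay in clusters that followed ventilation: 1 held 26 and 32 cells of the young and aged nonventilated libraries and 0 and 3 of the ventilated, and another held 2 and 0 against 38 and 17. Signal of other epithelial cells moved between these libraries as well, with type II markers summing to 588, 2653, 341 and 1272 CPM and club or secretory markers to 132, 1321, 7619 and 2183 CPM in library order. Their part in the subunit values was not tested.

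Type II-like cells held Scnn1a with few transcripts of its partners. Scnn1a was at 102 CPM in the young nonventilated, 133 CPM in the young ventilated, 134 CPM in the aged nonventilated and 137 CPM in the aged ventilated library, over 29 to 60 UMIs, and its ventilation ratios of 1.31 in the young (interval 0.829 to 2.12) and 1.02 in the aged (interval 0.647 to 1.60) were short of the fold. On the log2 scale they were 0.37 and 0.04, and they passed the fold at 1.42 and 1.06 with cells thinned to 1000 UMIs, at 0.64 and 0.92 with no upper limit on genes or UMIs and, in the aged, at 2.04 with libraries clustered separately. Scnn1b and Scnn1g had 25 and 8 UMIs in all type II-like cells together. Of 77 type II-like cells with at least 5000 UMIs, 63 had an Scnn1a UMI and 3 had all 3 subunits, against 101 of 127 type I-like cells (79.5%) with all 3. The type II-like cells were the deeper, with a median of 17676 UMIs against 14291 among these cells.

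**Figure D3:**
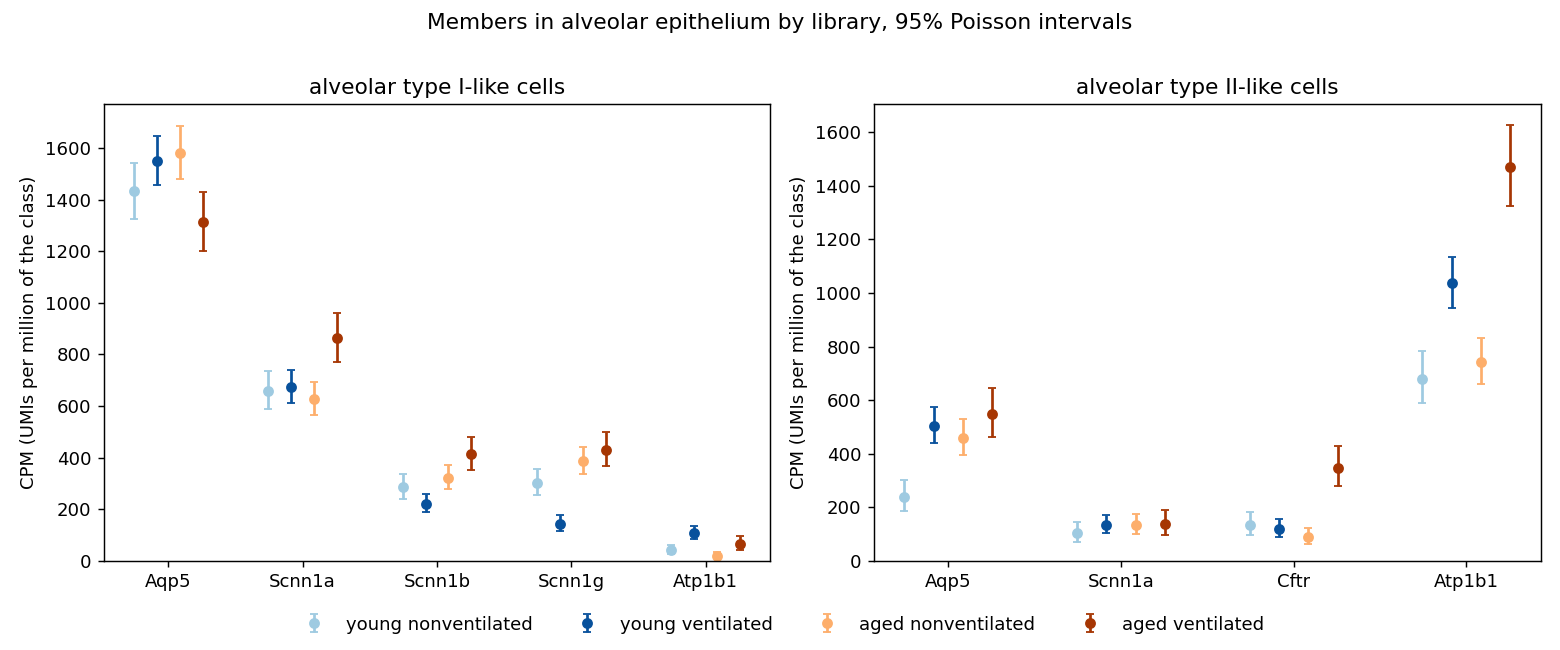
Levels of the members in alveolar type I-like and type II-like cells by library, in CPM with 95% counting intervals. In type I-like cells Scnn1g is lowest in the young ventilated library at 144 CPM while Aqp5 stays between 1313 and 1581 CPM, and in type II-like cells Cftr and Atp1b1 are highest in the aged ventilated library.

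Scnn1a was also found in myeloid cells, where both ventilated libraries stood far below the nonventilated. In nonclassical monocyte-like cells, the patrolling monocytes of the vessel wall, it was at 89.9 CPM in the young nonventilated (124 UMIs), 6.69 CPM in the young ventilated (12 UMIs), 33.3 CPM in the aged nonventilated (107 UMIs) and 5.63 CPM in the aged ventilated library (13 UMIs). The ventilated level was 13.4-fold lower in the young (interval 7.42 to 26.7) and 5.91-fold lower in the aged (interval 3.32 to 11.5), and the aged nonventilated level was 2.70-fold lower than the young (interval 2.07 to 3.53). Scnn1a averaged under 50 CPM in both ventilation comparisons and so was not among the measured genes there, of which 38.6% in the young and 31.3% in the aged were past the fold, while 6.70% were past it between the nonventilated libraries. Neutrophil-like cells gave like values, with 74.9 and 78.4 CPM in the young and aged nonventilated libraries (40 and 18 UMIs) against 9.23 and 9.15 CPM in the ventilated (10 and 12 UMIs), 8.12-fold lower in the young (interval 3.99 to 18.2) and 8.57-fold lower in the aged (interval 3.91 to 19.5). In neutrophil-like cells 53.5% of measured genes in the young and 53.4% in the aged were past the fold, and Scnn1a was again under 50 CPM on average. Most of those genes were lower with ventilation, and the median log2 ratio over all measured genes was -0.31 in the young and -0.34 in the aged. Classical monocyte-like cells held less, between 4.76 and 13.1 CPM.

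The Scnn1a UMIs of nonclassical monocyte-like cells were spread over many cells, and few Aqp5 UMIs lay beside them. Among 934 nonclassical monocyte-like cells, 157 had an Scnn1a UMI: 63 of 145 in the young nonventilated, 9 of 214 in the young ventilated, 75 of 365 in the aged nonventilated and 10 of 210 in the aged ventilated library. None had all 3 subunits, and 3 had Scnn1b and 7 Scnn1g. After thinning to 1000 UMIs the shares were 9.66%, 0.935%, 3.02% and 0.0% in library order, and no B or plasma-like cell of 324 had a UMI. These monocyte-like cells held 9 Aqp5 UMIs beside 256 of Scnn1a, whereas type I-like cells held 3158 beside 1467. In the monocyte-like cells the 6 general epithelial markers summed to 3.63 and 4.98 CPM in the young and aged nonventilated libraries (5 and 16 UMIs). In the ventilated libraries they summed to 24.5 and 16.0 CPM (44 and 37 UMIs). Other alveolar transcripts were there too: Sftpc had 473 UMIs, at 31.2, 37.4, 46.4 and 92.7 CPM in library order, above Scnn1a in 3 of the 4 libraries, and Ager had 65 UMIs. Neutrophil-like cells held 177 UMIs of Sftpc, 34 of Ager and 3 of Aqp5 beside 80 of Scnn1a, with Sftpc at 54.3, 48.9, 74.1 and 59.5 CPM in library order. The part of such RNA in the Scnn1a values was not tested.

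The gene next to Scnn1a could share its reads. Scnn1a lies at chr6:125320659-125344943 on the plus strand (GRCm38), and Tnfrsf1a, the main tumor necrosis factor receptor, starts 4418 bases past it on the same strand. Tnfrsf1a was at 207, 161, 172 and 121 CPM in nonclassical monocyte-like cells and at 416, 199, 279 and 207 CPM in neutrophil-like cells in library order. In classical monocyte-like cells it was at 211, 158, 164 and 149 CPM, where Scnn1a was at 12.1, 5.90, 13.1 and 4.76 CPM. Tnfrsf1a too was lower in the ventilated libraries, by less than Scnn1a, and whether reads were assigned to the wrong neighbour was not tested.

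**Figure D4:**
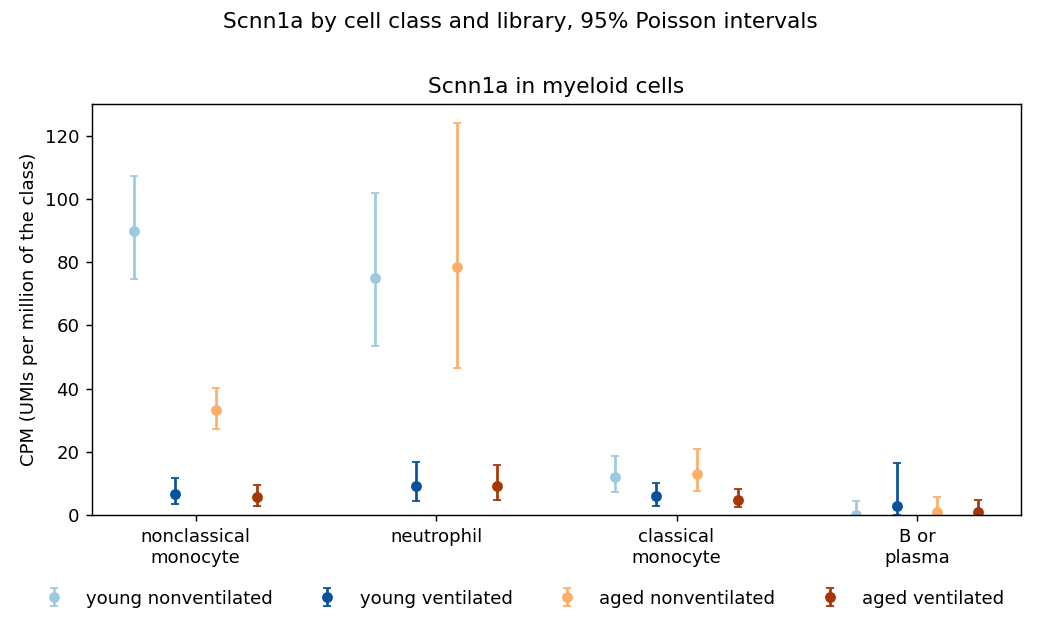
Scnn1a level by library in nonclassical monocyte, neutrophil, classical monocyte and B or plasma-like cells, in CPM with 95% counting intervals. Nonclassical monocyte-like cells go from 89.9 to 6.69 CPM in the young and from 33.3 to 5.63 CPM in the aged libraries, and B or plasma-like cells hold at most 1 UMI per library.

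Cftr, the channel mutated in cystic fibrosis, was a rare transcript, found mostly in type II-like and airway cells. Its means over the 4 libraries were 172 CPM ± 119 (SD) in type II-like and 167 ± 113 in airway cells, with overlapping ranges. In type II-like cells it stood at 133 CPM in the young nonventilated library (38 UMIs), 120.0 CPM in the young ventilated (54 UMIs), 88.4 CPM in the aged nonventilated (35 UMIs) and 348 CPM in the aged ventilated library (89 UMIs). Only the aged ventilated library stood apart, at 3.93 times the aged nonventilated level (interval 2.63 to 6.00) and 2.90 times the young ventilated (interval 2.04 to 4.14). Ventilated over nonventilated was 0.901 in the young (interval 0.584 to 1.40), and aged over young without ventilation was 0.664 (interval 0.407 to 1.08), the latter just past the fold with an interval that holds 1.

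The Cftr value of the aged ventilated library rests on 12 type II-like cells. A single cell held 53.9% of its Cftr UMIs, and without the top cell of each library the log2 ratios were 1.51 against the aged nonventilated and 1.00 against the young ventilated library, from 1.95 and 1.52 with all cells. With no upper limit on genes or UMIs and with libraries clustered separately the ventilation ratio was 0.62 and 0.68. The age ratio lost the fold at 0.13 with libraries clustered separately and at 0.17 with cells thinned to 1000 UMIs, and turned to -0.45 with at most 5% mitochondrial UMIs. The young ventilation ratio, -0.16 on the log2 scale, passed the fold at -1.07 with the UMI limit set over the barcodes that passed the other limits and at -0.63 with no upper limit. The age ratio without ventilation was short of the fold in 3 alternatives. Airway cells with club and ciliated markers held 19.3% of the Cftr UMIs in retained cells. These were 4, 39, 0 and 20 UMIs in library order, from 4, 13, 8 and 10 cells, or 228, 244, 0 and 198 CPM. Type I-like cells held 3 Cftr UMIs in all.

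Atp1b1, the beta-1 subunit of the sodium pump, was higher in type II-like cells of both ventilated libraries. It was at 680.3 CPM in the young nonventilated library (194 UMIs), 1036 CPM in the young ventilated (466 UMIs), 743 CPM in the aged nonventilated (294 UMIs) and 1470.0 CPM in the aged ventilated library (376 UMIs). Ventilated over nonventilated was 1.52 in the young (interval 1.29 to 1.81) and 1.98 in the aged (interval 1.69 to 2.31), among the 44.3% and 35.2% of measured genes past the fold given above. The aged level was 1.09 times the young without ventilation (interval 0.908 to 1.32) and 1.42 times with it (interval 1.24 to 1.63). In the aged ventilated library 1 cell held 25.3% of the Atp1b1 UMIs, and without the top cells the aged log2 ratio was 0.80. When each library was clustered alone, the aged log2 ratio was -0.34, the opposite direction, and the age ratio under ventilation turned from 0.51 to -0.68. The young log2 ratio of 0.60 was short of the fold at 0.48 in that alternative and at 0.50 with no upper limit.

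In type I-like cells Atp1b1 was low, at 39.9 CPM in the young nonventilated (19 UMIs), 105 CPM in the young ventilated (71 UMIs), 18.9 CPM in the aged nonventilated (11 UMIs) and 64.4 CPM in the aged ventilated library (25 UMIs). Both ventilated libraries again stood higher, 2.64-fold in the young (interval 1.57 to 4.64) and 3.41-fold in the aged (interval 1.62 to 7.68, with a mean under 50 CPM), and the aged ventilated level was 1.64-fold lower than the young ventilated. On the log2 scale the young ventilation ratio of 1.35 was 0.54, short of the fold, with no upper limit on genes or UMIs. The age ratio of -0.68 was short of the fold in 4 alternatives, of which 2 turned it, to 0.13 and 0.27. The summed type II markers in these cells, given above, had the same order over the 4 libraries, led by Sftpc at 426, 2129, 123 and 857 CPM, and their part in the Atp1b1 values was not tested. By mean over the 4 libraries type II-like cells were highest at 982 CPM ± 360.3 (SD), followed by mesothelial (341 ± 48.8), airway (324 ± 134), basophil (151 ± 75.1) and type I-like cells (57.1 ± 37.2).

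The rest of the sodium pump and the genes that set the activity of these channels were read from lists of 13 other pump subunits, 25 regulators, 10 other aquaporins and 25 other transporters. The ratios of single listed genes were not computed under the alternatives that moved many member ratios. In type I-like cells 10 regulators were measured at each age, of which 2 were higher and none lower with ventilation in the young, and 5 were higher and 1 lower in the aged. The median log2 ratio of the measured regulators was 0.09 in the young and 0.54 in the aged, where the median over all measured genes lay between -0.08 and 0.06 in each comparison of the capillary, venous, lymphatic, adventitial fibroblast and alveolar epithelial-like classes. Over all measured genes 35.4% and 27.6% were past the fold in these cells. Sgk1, the kinase that keeps the sodium channel at the cell surface, had the largest ratio, from 69.3 to 344 CPM in the young libraries (4.97-fold, interval 3.44 to 7.39) and from 73.7 to 368 CPM in the aged (4.99-fold, interval 3.53 to 7.20). In the same cells Wnk1, a kinase upstream of Sgk1 and of chloride cotransporters, was 1.71-fold higher in the young and 1.74-fold in the aged.

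The other regulators past the fold in type I-like cells passed it in the aged libraries. Tsc22d3, the glucocorticoid-induced leucine zipper, went from 194 to 551 CPM in the aged (2.84-fold, interval 2.25 to 3.60) and stood at 242 and 243 CPM in the young. Nedd4l, the ubiquitin ligase that removes the sodium channel from the surface, was 1.70-fold higher with ventilation in the aged (interval 1.48 to 1.94), and its young ratio was 0.705 (interval 0.619 to 0.804). The difference between the ages was not tested for either gene. Prss8, a protease that activates the channel, was short of the fold at both ages, with ratios of 0.779 and 1.09 over 32 to 44 UMIs.

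Of the other pump subunits, 3 were measured in type I-like cells in the young and 2 in the aged. Fxyd3, a small subunit that modulates the pump, was at 162 CPM in the young nonventilated library, 59.4 CPM in the young ventilated, and had only 7 UMIs in the aged nonventilated. Of 5 other transporters measured at each age, 2 were higher and 1 lower with ventilation, and Ano6, a calcium-activated scramblase and channel, was 1.85-fold higher in the young and 1.69-fold in the aged.

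In type II-like cells 11 regulators were measured at each age, with 1 higher and 3 lower in the young and 0 higher and 4 lower in the aged ventilated library, at median log2 ratios of -0.31 and -0.24. These counts lie near the 44.3% and 35.2% of all measured genes past the fold. Nr3c2, the mineralocorticoid receptor, was at 151 and 11.1 CPM in the young nonventilated and ventilated libraries, 13.6-fold lower (interval 5.38 to 43.9), and at 78.3 and 39.1 CPM in the aged, 2.00-fold lower (interval 0.957 to 4.58, which holds 1). Nedd4, a ubiquitin ligase related to Nedd4l, was 2.55-fold lower in the aged (interval 1.73 to 3.85), and Nedd4l itself 1.57-fold lower (interval 1.25 to 1.97), the opposite of its type I value. Of the other transporters, 2 of 7 measured were higher and none lower in the young, and 6 of 8 were higher and 1 lower in the aged, at median log2 ratios of 0.33 and 1.01. All type II values rest on few cells, 18, 27, 25 and 12 in library order. Ano1, a calcium-activated chloride channel, was 7.48-fold higher in the young (interval 3.03 to 23.9, from 5 UMIs without ventilation) and 2.12-fold higher in the aged (interval 1.13 to 4.05). Slc4a4, a sodium bicarbonate cotransporter, was 1.80-fold higher in the young (interval 1.13 to 2.97) and 2.48-fold in the aged (interval 1.37 to 4.57), and Slc26a9, a chloride channel that interacts with Cftr, was 1.95-fold higher in the aged (interval 1.22 to 3.12).

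In general capillary-like cells, where Aqp1 was the only abundant member, 1 regulator was higher and 4 lower of 12 measured in the young, and 1 higher and 5 lower of 11 in the aged, at median log2 ratios of -0.21 and 0.09. Over all measured genes 37% and 27.0% were past the fold in these cells. There Nr3c2 was 5.48-fold lower with ventilation in the young (interval 4.47 to 6.77) and 7.39-fold lower in the aged (interval 5.74 to 9.66). Adrb1, the beta-1 adrenergic receptor, was 3.01-fold lower in the young (interval 2.65 to 3.43) and 1.70-fold lower in the aged (interval 1.49 to 1.95), and Furin, a protease that cleaves the sodium channel among many substrates, was 2.60-fold and 2.10-fold higher. Among the transporters Slc12a2, the sodium potassium chloride cotransporter, was 3.51-fold higher in the young (interval 2.95 to 4.21) and 2.91-fold in the aged (interval 2.40 to 3.55), and Kcnq1, a potassium channel, was 6.14-fold lower in the young (interval 4.92 to 7.74) and 2.90-fold lower in the aged (interval 2.41 to 3.50). The pump subunit Fxyd5 was 2.37-fold and 2.23-fold higher. Aerocyte capillary-like cells gave 2 regulators higher and 6 lower of 12 in the young and 3 higher and 6 lower of 12 in the aged, where 43.2% and 32.6% of all measured genes were past the fold, with Nr3c2 2.69-fold lower in the young and 7.37-fold lower in the aged and Slc12a2 3.05-fold and 4.32-fold higher.

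**Figure D5:**
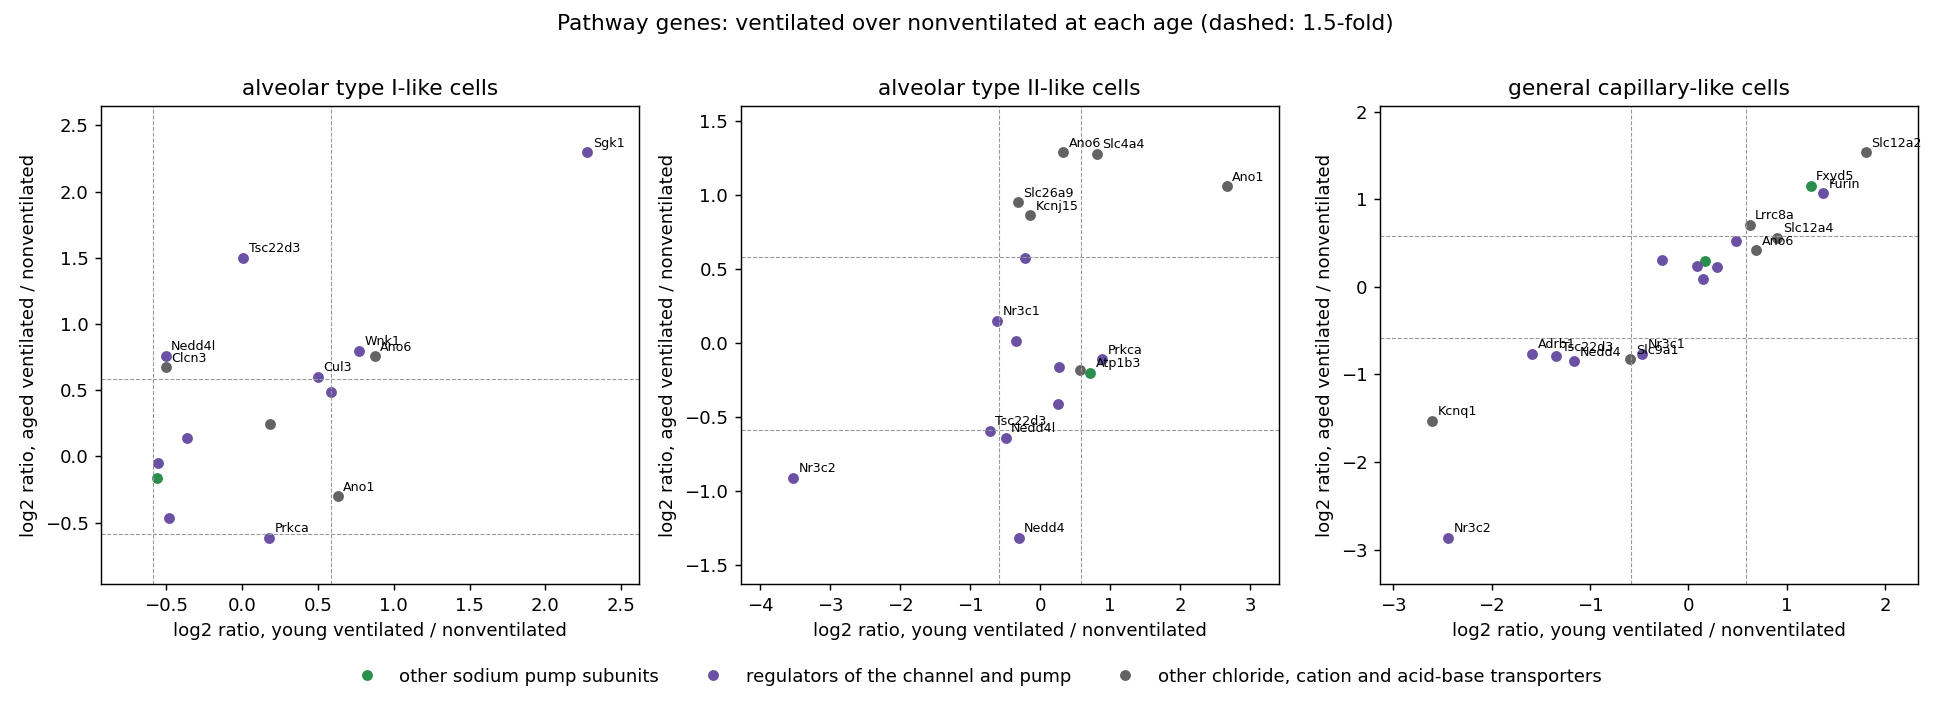
Log2 ratio of ventilated over nonventilated in the young (x axis) and aged libraries (y axis) for listed pathway genes measured at both ages in alveolar type I-like, type II-like and general capillary-like cells, with 1 point per gene and names for genes past 1.5-fold (dashed lines) at 1 age or more. Sgk1 lies at 2.28 and 2.30 in type I-like cells, and Nr3c2 at -2.44 and -2.87 in general capillary-like cells.

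None of the 10 other aquaporins was measured in the alveolar epithelial or capillary classes. Aqp9, a channel for glycerol and water, was measured in basophil-like cells, between 961 and 1311 CPM, and in neutrophil-like cells, at 161 and 213 CPM in the young and aged nonventilated libraries and 63.7 and 72.4 CPM in the ventilated. In neutrophil-like cells the median over all measured genes was also lower with ventilation, as given above.

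Across the 72 combinations of class and library with enough cells, the genes whose levels followed each member most closely were named by Pearson correlation of their log levels, as a description in which points share libraries and classes. For Aqp1 the closest gene was Fgd5, an endothelial regulator of small GTPases (r = 0.937), for Aqp5 it was Pof1b (r = 0.956) and for Scnn1a Mal2 (r = 0.819). Scnn1g was closest to its partner Scnn1b (r = 0.952), and Scnn1b to Mab21l4 (r = 0.963). Prss8 was among the 3 closest genes of both Aqp5 and Scnn1b. For Cftr the closest gene was Kcne2, a potassium channel subunit (r = 0.853), and for Atp1b1 it was Eya2 (r = 0.711), the lowest of the 7 values.

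The positions of the members are given with the genes that overlap them. Of these overlaps, only that of the pseudogene in Cftr lies on the member's own strand. Reads from introns were counted too, and whether any overlap changed a count was not tested. Aqp1 lies at chr6:55336432-55348555, Aqp5 at chr15:99590782-99594829 and Scnn1g at chr7:121734479-121768475, each on the plus strand. Scnn1b, at chr7:121865038-121918514 on the plus strand, overlaps Cog7 on the opposite strand over 39152 bases. Cftr, at chr6:18170687-18322768 on the plus strand, overlaps an antisense gene over 18913 bases and a processed pseudogene on its own strand over 961 bases, and Atp1b1, at chr1:164437109-164458355 on the minus strand, overlaps the end of Nme7 on the opposite strand over 617 bases.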

How the data were processed

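The authors deposited 1 matrix of UMI counts per library, made with Cell Ranger 7.0.0 on mm10 per the submitters' processing notes. Barcodes were kept where they held 200 to 5000 genes, a mitochondrial share of no more than 10% of UMIs, and a UMI total up to the 93rd percentile of all barcodes (28597.11). Counts were log-normalized to 1000000 per cell and clustered in Seurat 5.3.0 under R 4.3.3 (2000 variable genes without the members or listed pathway genes, 37 principal components, Louvain resolution 0.5), and epithelial clusters were clustered again among themselves with 15 components. The 30 clusters and 6 epithelial subclusters gave 21 named classes, each from at least 3 detected markers of a fixed list, by a rule set after the clusters were seen. Scrublet in scanpy 1.11.5 marked 38 of 10160 cells (0.374%), too few to be used as a doublet filter, so doublets were limited only by the upper bounds.

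Counts were summed per class and library and scaled to CPM with Python 3.11.15, numpy 2.4.6 and scipy 1.17.1. Ratios carry exact conditional binomial 95% intervals, and shares of cells exact Clopper-Pearson intervals. Log2 ratios have 1 UMI added to each sum. Libraries were compared only where each held at least 10 cells of the class. The ratio code was tested on simulated data. All members were named in every class, and of each pathway list at most 6 genes per class with the largest ratios past 1.5-fold, besides a few listed genes short of it that were chosen after their values were seen. The members and lists were chosen with earlier results of these data known. The alternatives with separately clustered libraries and with the top cell left out were chosen after seeing the data. A few listed genes are not reported here by name and are left out of the plot of pathway genes.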

Additional observations from a re-analysis of the deposited data

Results flagged for a closer look

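In 2 cases the ratio of ventilated over nonventilated lay on opposite sides of 1 at the 2 ages, with counting intervals that excluded 1. Each rests on 1 pooled library per condition, and the difference between the ages was not tested. For Aqp1 in venous endothelial-like cells the log2 ratio was -0.57 in the young and 0.78 in the aged. For Scnn1b in alveolar type I-like cells it was -0.37 in the young and 0.36 in the aged. With no upper limit on genes or UMIs the young Scnn1b log2 ratio was 0.039, on the same side as the aged, and with at most 5% mitochondrial UMIs it was -1.47.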

How the results depend on the processing

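Of 63 member ratios, 28 were past 1.5-fold, of which 12 were past it in every alternative that gave a value and 25 kept 1 direction. These counts include the ventilation ratios of Scnn1a in nonclassical monocyte- and neutrophil-like cells at both ages, added because they are shown above. Scnn1a averaged under 50 CPM there and so did not count as measured, and each of these ratios was past the fold in every alternative. The share of all measured genes past the fold, given above by class and comparison, ran from 2.47% to 53.6%. Values here are log2 ratios unless said otherwise, in type I-like cells for Aqp5, Scnn1a, Scnn1b and Scnn1g and in type II-like cells for Cftr and Atp1b1, and the causes were not tested. With the UMI percentile taken over the barcodes left by the other limits, Aqp5 in the aged was -0.46 and Scnn1a 0.21, and Atp1b1 in type I-like cells turned to 0.13 for age under ventilation. With no upper limit, Scnn1a in the young was 0.30, Aqp5 in the aged -0.43, Cftr and Atp1b1 in the aged 0.62 and 0.74, venous Aqp1 -0.27 in the young and 0.46 in the aged, and for age under ventilation Scnn1b was 0.44, Scnn1g 1.17 and Atp1b1 in type I-like cells 0.27, turned. With at most 5% mitochondrial UMIs, in the young Aqp5 was -0.41, Scnn1a -1.31 and venous Aqp1 -0.82, in the aged Aqp5 -0.45, Scnn1a -0.026, Scnn1g -0.89 and venous Aqp1 0.61, and for age under ventilation Scnn1b was 1.55, Scnn1g 0.58 and Cftr turned to -0.45. With cells thinned to 1000 UMIs, in the young Scnn1g was -0.088, Aqp1 -0.86 in aerocyte and -0.79 in venous cells and Scnn1a -2.47 in nonclassical monocyte-like cells, in the aged Aqp1 was -0.011 in aerocyte and 0.97 in venous cells, Aqp5 -0.46, Scnn1a -0.040, Scnn1g -0.75 and Atp1b1 1.64, and Scnn1g was 0.15 for age under ventilation. With the mean of per-cell CPM, Scnn1a in the young was -0.39, in the aged Aqp1 was -0.63 in aerocyte and 1.09 in venous cells, Aqp5 -0.44, Scnn1a -0.16 and Scnn1g -0.29, and Scnn1g was 0.90 for age under ventilation. With median-of-ratios size factors, Aqp1 in the young was -0.89 in general capillary, -0.86 in aerocyte and -0.41 in venous cells, and in the aged -0.17 and -0.13 in general capillary and aerocyte cells. At resolution 0.18, general capillary Aqp1 turned to 0.038 in the aged and was 1.17 for age under ventilation, in a class known to merge with arterial and venous cells. With libraries clustered separately, Cftr in the aged was 0.68 and Atp1b1 turned to -0.34. Subtracting the B or plasma-like level or leaving out the highest 5% of Scrublet scores moved no ratio that could be computed beyond its interval. The latter gave no ratio in type II-like cells.

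Pathway genes past the fold numbered 13 in type I-like and 11 in type II-like cells of the young both with no CPM filter and with at least 10 CPM, and 19 in general capillary-like cells of the aged with no filter. At a fold of 2 they numbered 3 and 3 in type I-like, 2 and 5 in type II-like, 9 and 5 in general capillary-like and 9 and 8 in aerocyte capillary-like cells of the young and aged. No paired analysis was possible because each group has 1 library. Some alternatives gave no value for a class, as with no upper limit, where the named clusters held too few of the general capillary-like cells. Without the highest Scrublet scores no ratio of type II-like cells could be computed, since fewer than 10 of them remained in 1 or both libraries compared. The type II values therefore have no check of that kind.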

Other observations

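Aqp1 was also present outside the named classes. In 337 retained cells that no marker list named, led by haemoglobin and cardiac transcripts at a median of 986 UMIs, it was at 901 CPM in the young nonventilated, 258 CPM in the young ventilated, 948 CPM in the aged nonventilated and 678 CPM in the aged ventilated library. In 1778 barcodes beyond the upper limits on genes or UMIs it was at 401, 153, 259 and 253 CPM in the same order. All retained cells, which include the named classes described above, had 302, 132, 249 and 219 CPM. In each of these 3 sets the young ventilated library was the lowest, but the last set largely repeats the endothelial values above. All 3 mix cell types, whose proportions in each library were not held equal. B or plasma-like cells held Atp1b1 at 50.1, 2.99, 18.1 and 13.9 CPM in that order, where 1 cell held 24 of the 41 UMIs.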
